A study of Mus musculus with 8 samples.

Results

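The core and ATPase subunits of the SWI/SNF chromatin remodeling complex were followed here through the 9 genes that encode them, Smarcb1, Smarce1, Smarca4, Smarca2, Smarcc1, Smarcc2, Smarcd1, Smarcd2 and Smarcd3. The rule takes these 9 by name and uses no measured value. They come from 23694 named genes in the female table and 23409 in the male table, and each has a single row in both tables. RNA-Seq was performed on E15.5 mouse germ cells sorted by the Oct4-EGFP transgene, which all embryos carried. There were 8 libraries in 4 groups, with 2 libraries each for control females, Snf5 CKO females, control males and Snf5 CKO males. Snf5 is the older name of Smarcb1. The Snf5 CKO embryos carried a floxed and a deleted Snf5 allele (Snf5 fx/Δ) together with TNAP-Cre, in which Cre is knocked into Alpl and acts in primordial germ cells. Per the study, this Cre does not recombine in all germ cells and its extent varies between mice, and most somatic cells of the Snf5 CKO gonads still held SNF5. Control samples were mixtures of the genotypes Snf5 fx/+, Snf5 fx/Δ and Snf5 fx/+ with TNAP-Cre, so that some control cells also carried a deleted allele. Libraries of the controls and of the Snf5 CKO females pooled several embryos, whereas the study lists a single mouse for male Snf5 CKO replicate 2 and single mice on separate lines for male Snf5 CKO replicate 1. The labels give C57BL/6 as the strain background, whereas the study's methods describe mice of mixed C57BL/6, 129/Sv and ICR origin.

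SWI/SNF complexes use ATP to slide or evict nucleosomes and thereby open chromatin at enhancers and promoters. Each complex holds a single ATPase, either BRG1 (encoded by Smarca4) or BRM (Smarca2), which is built onto a core of SMARCC scaffold proteins, a SMARCD protein, SMARCE1 and SMARCB1. Paralogues of the same letter compete for the same position, so the makeup of the complexes in a cell depends on which paralogue is expressed. SMARCB1 contacts the nucleosome face opposite the ATPase and is part of the BAF and PBAF forms, whereas the non-canonical BAF form is assembled without SMARCB1 and SMARCE1.

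The conditional allele removes exon 1 of Smarcb1, which holds the start codon. The coding part of that exon is shown, since the genotypes alter no other exon of the complex. In the principal GENCODE transcript (GRCm38, chr10:75921303-75921395, minus strand) the coding part spans 93 bases, or 31 codons. The whole exon, all of which is removed, makes up 315 of the 1660 transcribed bases. The start codon is in capitals.
Smarcb1 exon 1, coding part: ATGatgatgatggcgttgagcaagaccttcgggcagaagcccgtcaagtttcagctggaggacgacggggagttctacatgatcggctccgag
The deposited value of Smarcb1 is computed over the locus and not over exon 1 alone. Transcripts of the floxed allele in cells without recombination, transcripts that lack exon 1 and RNA of other cells cannot be told apart in it.

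In Snf5 CKO females, 6 of the 9 genes passed the test, and they moved in both directions. Smarcb1, Smarca4 and Smarcd3 fell, against a background of 34.6% of 11529 tested genes that were called lower. Smarca2, Smarcc1 and Smarcc2 rose, against 26.9% of tested genes called higher. In Snf5 CKO males, Smarcb1, Smarcd3 and Smarcd2 fell, against 25.3% of 12279 tested genes called lower, and none of the 9 was called higher, against 21% of tested genes. Among members with a positive fold change in males, the smallest unadjusted limma p without a replicate block was 0.0727, for Smarcc2. With the replicate number as a block, Smarca2, Smarcc2 and Smarcd1 were called higher in males, against 35.1% of tested genes. Calls here are Benjamini-Hochberg adjusted p values under 0.05 from limma on log2(FPKM + 1), fitted to each sex alone. Under a stricter rule that also asks for a log2 fold change of at least 1 in size, 5 members were called in females (Smarcb1, Smarca4, Smarca2, Smarcc2 and Smarcd3) against 38.9% of tested genes, and 2 in males (Smarcb1 and Smarcd3) against 31.8%. In females the 3 lower and 3 higher members of 9 are near the background shares. The counts above and the medians below include Smarcb1, the gene that the genotype targets, whose fall is no independent result. The median log2 fold change was 0.07 over the 9 members and -0.13 over all tested genes in females, and -0.28 and -0.07 in males.

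**Figure D1:**
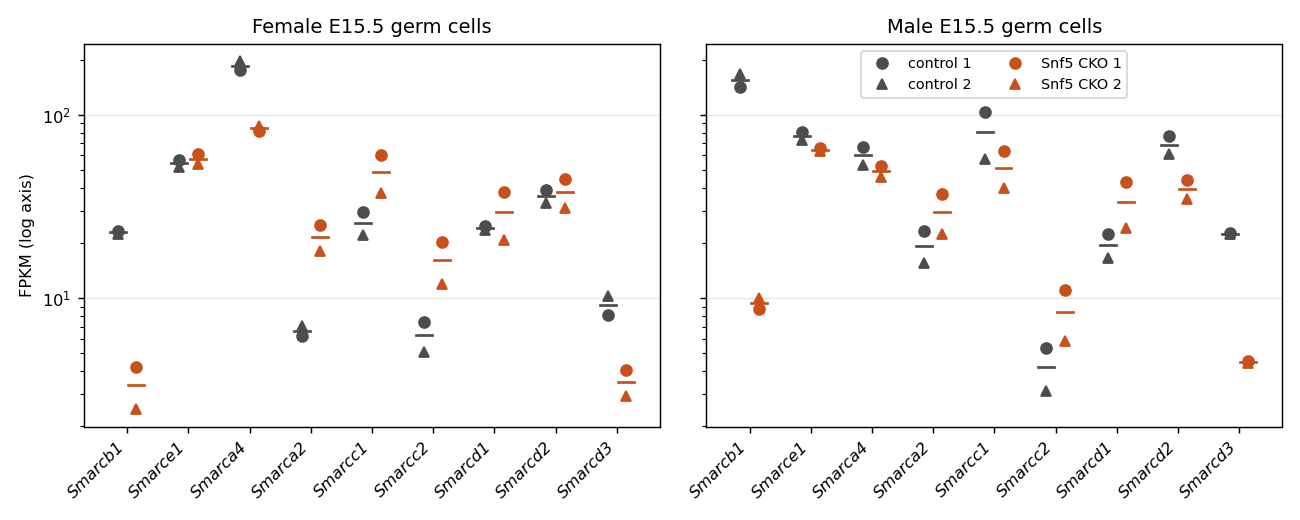
FPKM of the 9 genes (log axis) in each library of female (left) and male (right) E15.5 germ cells, with control libraries in grey, Snf5 CKO libraries in orange, replicate 1 as circles, replicate 2 as triangles and the group mean as a bar. In both panels the Snf5 CKO libraries lie below the controls for Smarcb1 and Smarcd3, and replicate 2 lies below replicate 1 in 30 of the 36 sets of a gene and a group.

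The libraries differ in ways that bear on these values. The replicate number was taken to mark a shared batch, although no label states it: the libraries of replicate 1 name the same flow cell lane, those of replicate 2 are named in another style, and the male columns call the numbers experiments. Of the 36 sets of a member and a group, replicate 1 was the higher library in 30. When the replicate number was entered as a block, the same 6 members were called in females, and all 9 were called in males, with Smarca4, Smarcb1, Smarcc1, Smarcd2, Smarcd3 and Smarce1 lower and Smarca2, Smarcc2 and Smarcd1 higher. In that fit 42.6% of all tested genes in females were called lower and 34.1% higher, so that the 3 lower and 3 higher members of 9 did not exceed the background. In males the shares were 41.2% lower and 35.1% higher, so that most genes passed it in both sexes. The study lists high germ cell purities for the sorted pools of both genotypes. Markers of other gonadal cells also moved with the genotype. The summed FPKM of 6 markers of female supporting cells was 6.70 and 10.0 in the female controls and 28.6 and 29.3 in the Snf5 CKO females, and all 6 were called higher. That of 6 Sertoli cell markers was 27.1 to 36.7 in the male controls and 135 to 184 in the Snf5 CKO males, again with all 6 called higher. None of these markers was at 0 in all libraries of a sex. The sum of 4 Leydig cell markers was lower in Snf5 CKO males, at 5.08 and 8.91 against 25.5 and 49.7, and 2 of the 4 were called lower. The sum of 4 stromal markers was lower with Snf5 CKO in both sexes, at 3.04 and 4.10 against 5.45 and 10.4 in females and at 1.68 and 3.03 against 7.51 and 14.5 in males, with Col1a1 called lower in both and Col3a1 in males. The sum of 4 endothelial markers was 20.1 and 25.1 in Snf5 CKO females against 4.24 and 6.54 in the controls. Pecam1, the only one tested, was called higher and held most of the sum. Cdh5, Kdr and Tek had lower means with Snf5 CKO, at 0.00473, 0.0775 and 0.541 FPKM against 0.118, 0.269 and 1.13. In males the sum of the 4 markers was 6.90 and 10.1 against 10.1 and 11.3, with Tek called lower. Blood markers were low in females, with none tested, and in males 1 of 2 tested, Alas2, was called lower. The 7 germ cell markers summed to 1854 and 1867 FPKM in the female controls against 1548 and 1603 with Snf5 CKO, and to 3458 and 3475 in the male controls against 2095 and 2269 with Snf5 CKO. In females 3 of them were called higher (Pou5f1, Dnd1 and Kit) and Mael was called lower, with means of 650 and 172 FPKM. In males Ddx4, Mael, Tdrd5 and Dnd1 were called lower and Kit higher, with means of 998 and 128 FPKM for Mael. Pou5f1, which encodes OCT4 and whose promoter drives the sorted transgene, had 8.63 and 16.7 FPKM in female control libraries against 295 and 333 with Snf5 CKO. The part of these shifts in the results on the subunits was not tested, and in sorted pools fewer cells of a type and less RNA per cell cannot be told apart.

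Smarcb1, the targeted gene, lies at chr10:75896769-75921614 (mm10, minus strand) and no other GENCODE gene overlaps it. In females its level was 23.4 and 22.3 FPKM in the control libraries and 4.24 and 2.47 FPKM in the Snf5 CKO libraries. In males it was 141 and 167 FPKM in the controls and 8.73 and 10.1 FPKM in the Snf5 CKO libraries. All Snf5 CKO libraries lay well below all controls of their sex, in the direction that the labels give. The mean fell by 85.3% in females (from 22.9 ± 0.721 to 3.36 ± 1.25 FPKM, SD, n = 2) and by 93.9% in males (from 154 ± 18.4 to 9.39 ± 0.940 FPKM, SD, n = 2). The log2 fold change was -2.48 with a standard error of 0.24 in females (limma, adjusted p = 0.000273) and -3.90 with a standard error of 0.18 in males (limma, adjusted p = 0.00213). Smarcb1 remained detectable in every Snf5 CKO library, at or above a rank of 59.2% among named genes in females and of 69.9% in males.

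Smarcb1 can be read against Smarce1, another core subunit, inside each library, which removes the scaling of the library. The ratio of Smarcb1 to Smarce1 was 0.411 and 0.428 in the female controls and 0.0698 and 0.0458 in the Snf5 CKO females. It was 1.75 and 2.30 in the male controls against 0.133 and 0.158 in the Snf5 CKO males. The ratio was thus lower with Snf5 CKO in both sexes, and in controls it was higher in both male than in both female libraries. An exact two-sided permutation test of 2 libraries against 2 cannot give a p below 0.333, which is the value of each of these comparisons between genotypes. Levels and ratios of the sexes come from separate tables whose gene models differ for some members, and the part of this in differences between the sexes was not tested.

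The ATPase genes moved in opposite directions in females. Smarca4, which encodes BRG1, was at 175 and 195 FPKM in the female controls against 82.0 and 87.1 FPKM in the Snf5 CKO females. Smarca2, which encodes BRM, was at 6.19 and 7.04 FPKM in the female controls against 25.2 and 18.2 FPKM in the Snf5 CKO females. The groups do not overlap for either gene. The mean of Smarca4 fell by 54.3% (log2 fold change -1.12, SE 0.18, limma adjusted p = 0.00190), and that of Smarca2 was 3.28-fold higher (log2 fold change 1.56, SE 0.21, limma adjusted p = 0.00102). Both were called, with the same sign, in all 15 alternative settings. The ratio of Smarca4 to Smarca2 changed from 28.2 and 27.8 in the controls to 3.26 and 4.79 in the Snf5 CKO females, which is 7.08-fold lower as a geometric mean.

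In males, Smarca4 was at 66.9 and 53.2 FPKM in the controls against 52.5 and 45.7 FPKM in the Snf5 CKO libraries. Smarca2 was at 23.1 and 15.5 FPKM in the controls against 36.9 and 22.2 FPKM in the Snf5 CKO libraries. The Smarca4 values are separated by less than 1 FPKM and those of Smarca2 overlap, but in both replicates Smarca4 was lower and Smarca2 higher with Snf5 CKO. Neither passed the test in limma. The log2 fold change of Smarca4 was -0.28 (95% interval -0.78 to 0.23, adjusted p = 0.293) and that of Smarca2 was 0.57 (interval -0.25 to 1.40, adjusted p = 0.202). With the replicate block the adjusted p was 0.0112 for Smarca4 and 0.00176 for Smarca2. The ratio of Smarca4 to Smarca2 was 2.90 and 3.43 in the male controls against 1.42 and 2.06 in the Snf5 CKO males.

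The deposited locus of Smarca2 (chr19:26605160-26823907, plus strand) runs past the GENCODE end of the gene and takes in the antisense transcript 4931403E22Rik, which is listed at 0 in all libraries, and GENCODE also places there the antisense transcript Gm20616 and the pseudogene AC118472.1, whose levels were not analysed here. The library kit does not mark the strand, so reads of antisense transcripts and of Smarca2 cannot be told apart. Smarca4 lies at chr9:21616169-21704230 on the plus strand with Gm27373, annotated as a misc_RNA, inside it, and in the male table its locus starts 116 bases further upstream. The RefSeq promoters of this opposed pair are shown as far as they lie upstream of every start that the tables and GENCODE give (GRCm38.p6, plus strand, chr9:21615919-21616052 and chr19:26604910-26605049), with capitals marking GC boxes, the GGGCGG motif on either strand, which is the binding motif of SP1 and its relatives.
Smarca4, 134 bases: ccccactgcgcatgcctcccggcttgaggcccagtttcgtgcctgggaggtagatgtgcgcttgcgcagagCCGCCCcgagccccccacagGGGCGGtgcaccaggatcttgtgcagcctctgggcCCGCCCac
Smarca2, 140 bases: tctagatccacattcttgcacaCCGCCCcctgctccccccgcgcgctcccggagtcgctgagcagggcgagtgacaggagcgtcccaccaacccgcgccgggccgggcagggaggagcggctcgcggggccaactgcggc
Over the full 250 bases before the RefSeq start, Smarca4 holds 3 GC boxes and Smarca2 holds 2. Promoters were given for 8 of the 9 members, with none for Smarce1. A GC box is present in 7 of these 8, all but that of Smarcc2, and in 32.7% of 32851 mouse promoters of the same length. The 8 windows hold 56.4% to 80.8% GC, against a median of 52.4% over all promoters. They hold 21 to 40 CpG, and 4 in that of Smarcd2, against a median of 6. The part of base composition in the GC box count was not tested. A TATAAA motif occurs only in the Smarcd2 window (12.4% of all promoters), and none of the 8 holds CCAAT (33.8%), CACGTG (6.02%) or TGACGTCA (1.55%), all searched on both strands. The windows follow the RefSeq start, so that of Smarcd2 lies inside the deposited locus in both tables, and those of Smarcc1 and Smarcd3 lie inside it in the male table. These are matches of letters only.

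The SMARCC scaffold genes rose in females. Smarcc1, which encodes BAF155, was at 29.5 and 22.0 FPKM in the female controls against 60.1 and 37.2 FPKM in the Snf5 CKO females. Smarcc2, which encodes BAF170, was at 7.44 and 5.08 FPKM in the controls against 20.3 and 11.9 FPKM in the Snf5 CKO females. Neither gene's groups overlap, and replicate 1 was the higher library in each group. Smarcc2 was 2.57-fold higher in the mean (log2 fold change 1.21, SE 0.29, limma adjusted p = 0.0107) and Smarcc1 was 1.89-fold higher (log2 fold change 0.87, SE 0.27, limma adjusted p = 0.0270). The call of Smarcc1 rested on 2 libraries, since its limma adjusted p was 0.142 without Snf5 CKO replicate 1 and 0.0687 without control replicate 2, and over all alternatives it ran from 0.000606 to 0.213. Both calls were lost when genes of any level were tested together, with adjusted p = 0.213 for Smarcc1 and 0.148 for Smarcc2.

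In males Smarcc1 was at 103 and 57.2 FPKM in the controls against 63.4 and 39.7 FPKM in the Snf5 CKO libraries, and Smarcc2 was at 5.34 and 3.12 FPKM in the controls and at 11.02 and 5.87 FPKM with Snf5 CKO. The groups of Smarcc1 overlap, and Smarcc2 was higher in both Snf5 CKO libraries than in both controls. Neither passed the test in limma, with a log2 fold change of -0.61 (95% interval -1.56 to 0.35, adjusted p = 0.236) for Smarcc1 and of 0.83 (interval -0.11 to 1.77, adjusted p = 0.123) for Smarcc2. With the replicate block the adjusted p was 0.000779 for Smarcc1 and 0.00216 for Smarcc2. Without a library the log2 fold change ran from -1.03 to -0.19 for Smarcc1 and from 0.43 to 1.23 for Smarcc2. Smarcc1 lies at chr9:110132011-110240178 and Smarcc2 at chr10:128459236-128490174 on the plus strand in the female table, and the spans of both are longer in the male table.

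Among the SMARCD genes, which encode the BAF60 proteins that link the complex to transcription factors, Smarcd3 (BAF60C) fell in both sexes. Smarcd3 was at 8.09 and 10.3 FPKM in the female controls against 4.08 and 2.93 FPKM in the Snf5 CKO females. In males it was at 22.8 and 22.3 FPKM in the controls against 4.56 and 4.42 FPKM in the Snf5 CKO libraries. The Snf5 CKO libraries of both sexes thus lay between 2.93 and 4.56 FPKM, below all controls. The mean fell by 61.9% in females (log2 fold change -1.18, SE 0.22, limma adjusted p = 0.00383) and by 80.0% in males (log2 fold change -2.10, SE 0.17, limma adjusted p = 0.00224). The female call was lost only when genes of any level were tested together (adjusted p = 0.0671). The locus of Smarcd3 (chr5:24592622-24602002, minus strand, in the female table) overlaps Chpf2 as GENCODE draws it on the opposite strand, and in the male table it extends to 24624429 and holds 3 start site groups in place of 1.

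Smarcd2, which encodes BAF60B, was at 76.5 and 60.8 FPKM in the male controls against 43.9 and 34.8 FPKM in the Snf5 CKO males. In females it was at 38.9 and 32.8 FPKM in the controls and at 44.8 and 31.0 FPKM with Snf5 CKO. The groups are separate in males and overlap in females. The mean fell by 42.6% in males (log2 fold change -0.79, SE 0.21, limma adjusted p = 0.0342), and in females the log2 fold change was 0.06 (95% interval -0.47 to 0.59, limma adjusted p = 0.828). The male call was the least firm of the calls in that sex, since the adjusted p was 0.0779 after scaling the libraries to a common sum, 0.108 with genes of any level, and 0.170, 0.173 and 0.061 without Snf5 CKO replicate 2, control replicate 1 and control replicate 2.

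Smarcd1, which encodes BAF60A, was at 24.9 and 23.6 FPKM in the female controls against 38.0 and 20.7 FPKM in the Snf5 CKO females, so that the groups overlap. In males it was at 22.3 and 16.5 FPKM in the controls against 43.1 and 24.1 FPKM in the Snf5 CKO libraries, which lay above both controls. Neither difference passed the test in limma, with a log2 fold change of 0.21 (95% interval -0.47 to 0.88, adjusted p = 0.549) in females and of 0.72 (interval -0.12 to 1.56, adjusted p = 0.131) in males. With the replicate block the male adjusted p was 0.00279. The male log2 fold change was 0.31 without Snf5 CKO replicate 1 and 1.13 without Snf5 CKO replicate 2. Smarcd1 (chr15:99702287-99713995, plus strand) overlaps 3 annotated genes on the opposite strand, Gm17349, Gm34939 and Gm17241, and Smarcd2 (chr11:106263171-106272972, minus strand) overlaps none.

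Smarce1, which encodes BAF57, a subunit with an HMG-type DNA-binding domain, was not called in either sex. It was at 56.8 and 52.2 FPKM in the female controls against 60.8 and 54.1 FPKM in the Snf5 CKO females. In males it was at 80.8 and 72.5 FPKM in the controls and at 65.8 and 63.5 FPKM with Snf5 CKO. The female groups overlap and the male Snf5 CKO libraries lay below both controls. The log2 fold change was 0.07 in females (95% interval -0.33 to 0.48, limma adjusted p = 0.724) and -0.24 in males (interval -0.67 to 0.19, limma adjusted p = 0.285, or 0.0138 with the replicate block). Smarce1 lies at chr11:99209048-99231017 on the minus strand.

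**Figure D2:**
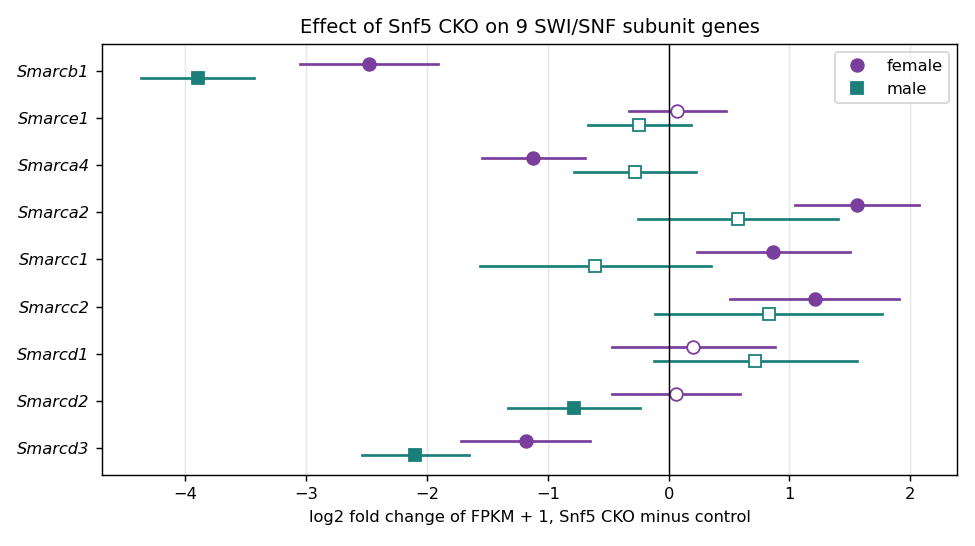
Log2 fold change of FPKM + 1 (Snf5 CKO minus control) of the 9 genes in female (circles) and male (squares) germ cells from limma, with 95% intervals and filled symbols for an adjusted p under 0.05. Smarcb1 and Smarcd3 lie left of 0 in both sexes with intervals that do not reach 0, and the intervals of the uncalled genes include 0.

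The share that each paralogue takes of the summed FPKM of its group does not depend on how a library is scaled, and FPKM is per length, so paralogues can be set side by side. Smarca4 made up 96.6% and 96.5% of ATPase FPKM in the female controls and 76.5% and 82.7% in the Snf5 CKO females, a change of -16.9 percentage points in the mean. In males it made up 74.3% and 77.4% in the controls and 58.7% and 67.3% with Snf5 CKO, a change of -12.9 points. The share of Smarca4 was lower in every Snf5 CKO library than in every control of the same sex, and the share in the male controls was close to that in the Snf5 CKO females.

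Smarcc1 made up 79.8% and 81.2% of SMARCC FPKM in the female controls and 74.7% and 75.8% in the Snf5 CKO females. In males it made up 95.1% and 94.8% in the controls and 85.2% and 87.1% with Snf5 CKO. The share of Smarcc2 was accordingly higher with Snf5 CKO in both sexes, by 5.28 and 8.80 percentage points, although Smarcc1 itself had a positive fold change in females and a negative one in males.

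The mean SMARCD shares moved by more percentage points in males than in females, and this difference between the sexes was not tested. In males Smarcd1 made up 18.4% and 16.6% of SMARCD FPKM in the controls and 47.1% and 38.0% in the Snf5 CKO libraries, while Smarcd3 went from 18.7% and 22.4% to 4.98% and 6.99%. Smarcd2 remained the largest share in the male controls, at 62.9% and 61.1%, and was at 47.9% and 55.0% with Snf5 CKO. In females Smarcd3 made up 11.3% and 15.5% in the controls and 4.70% and 5.37% with Snf5 CKO, and Smarcd1 went from 34.6% and 35.4% to 43.8% and 37.8%. The shares of Smarcd1 and Smarcd3 do not overlap between genotypes in either sex, and the shares of Smarcd2 overlap in females. For 13 of the 14 shares of a gene in a sex, the groups were separate and the exact two-sided permutation p was 0.333. That is the smallest that 2 libraries against 2 can give, so these shares are given as values. The 14 shares are not independent, since those of the ATPase genes, and those of the SMARCC genes, mirror each other. How often the groups are separate over all genes is not given here, so the count of 13 was not set against a background.

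**Figure D3:**
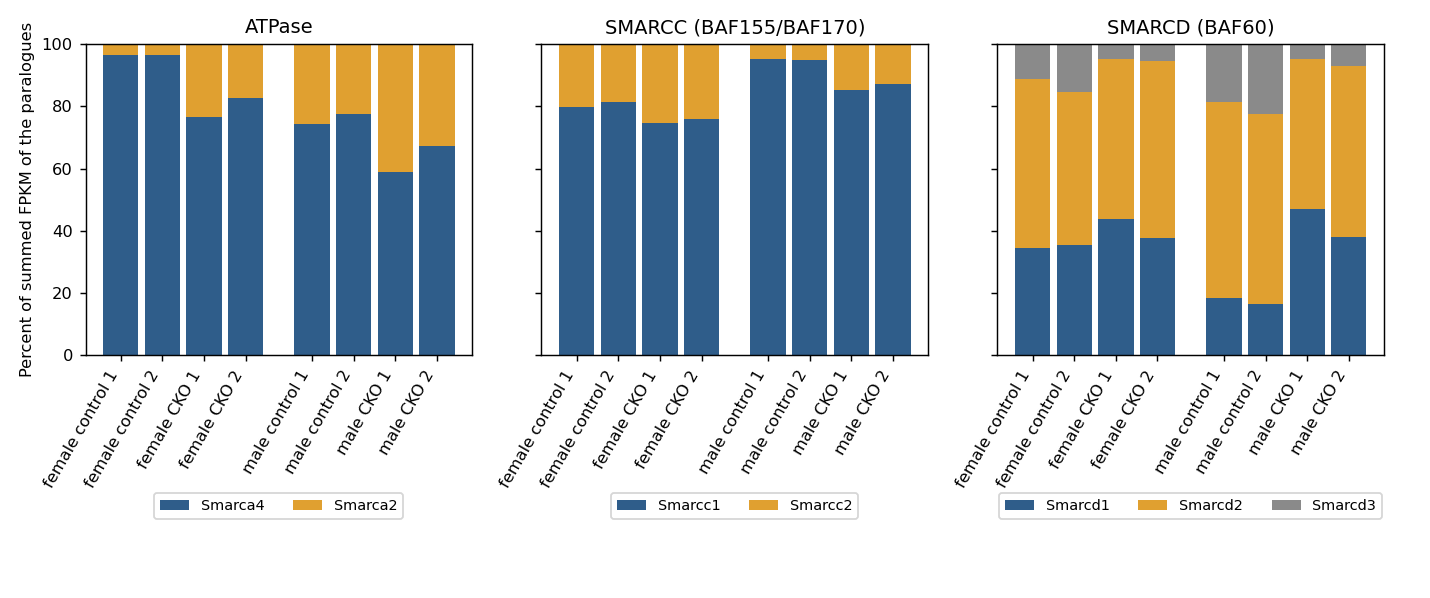
Percent of the summed FPKM of each paralogue group, one bar per library, for the ATPases (left), SMARCC (middle) and SMARCD (right) genes. The Smarca2 and Smarcc2 parts are larger and the Smarcd3 part smaller in the Snf5 CKO bars of both sexes than in the controls beside them.

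Summed by position in the complex, the ATPase FPKM was 181 and 202 in the female controls and 107 and 105 in the Snf5 CKO females, and thus 44.6% lower in the mean. The rise of Smarca2 was small in FPKM beside the drop of Smarca4. In males the ATPase sum was 90.0 and 68.7 in the controls and 89.4 and 68.0 with Snf5 CKO, and each replicate pair lay within 1 FPKM. The SMARCC sum was 36.9 and 27.1 in the female controls and 80.4 and 49.1 in the Snf5 CKO females, and in males it was 109 and 60.3 against 74.4 and 45.5. The SMARCD sum was 71.9 and 66.8 in the female controls and 86.9 and 54.6 with Snf5 CKO, which overlap, and 122 and 99.6 against 91.6 and 63.3 in males, which do not. Among these 6 sums, the groups were separate for the female ATPases, the female SMARCC genes and the male SMARCD genes.

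The order of the levels differed between the groups. In female controls Smarca4 (mean 185 FPKM) was 3.40-fold above the next gene, Smarce1 (54.5 FPKM), followed by Smarcd2, Smarcc1, Smarcd1, Smarcb1, Smarcd3, Smarca2 and Smarcc2 (6.26 FPKM), and only Smarcc1 and Smarcd1, and Smarca2 and Smarcc2, overlapped with their neighbour. In Snf5 CKO females Smarca4 was still highest at 84.6 FPKM, the ranges of neighbours from Smarce1 down to Smarcc2 overlapped, and Smarcd3 (3.51 FPKM) and Smarcb1 (3.36 FPKM) came last without a difference beyond their spread. In male controls Smarcb1 was highest at 154 FPKM and did not overlap with Smarcc1 (80.2 FPKM), whereas Smarcc1, Smarce1, Smarcd2 and Smarca4 overlapped from neighbour to neighbour. In Snf5 CKO males Smarce1 was highest (64.6 FPKM), Smarcb1 was in the seventh place and overlapped with Smarcc2 (8.44 FPKM), and Smarcd3 was lowest (4.49 FPKM). The Cufflinks bounds of single values are wide, from 65.5% to 123% of the value on the upper side, and with them Smarcb1 in males is the only member whose intervals in the 2 genotypes do not touch.

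The effect of Snf5 CKO was compared between the sexes with an interaction contrast in limma, for which 45.3% of 10472 genes tested in both tables were called. Among the members, 3 were called. The effect on Smarcb1 was more negative in males, with a male minus female difference of -1.41 on the log2 scale (SE 0.31, adjusted p = 0.00860), as was that on Smarcd3 with -0.91 (SE 0.27, adjusted p = 0.0284), while the effect on Smarca4 was less negative in males, with a difference of 0.84 (SE 0.24, adjusted p = 0.0240). Smarcb1 is the targeted gene, and the study estimated more complete recombination of its floxed locus in males. The part of this in the Smarcb1 difference was not tested. The calls of Smarca4 and Smarcd3 were lost after scaling to a common sum (adjusted p = 0.336 and 0.118) and in 5 and 6 of the 8 fits that left out a library. Smarcc1 rose in both replicates of the females and was lower in both of the males, a difference of -1.47 (SE 0.52, 95% interval -2.69 to -0.26) that narrowly missed the threshold (adjusted p = 0.0519). With the replicate block 71.4% of these genes were called, and 7 of the 9 members, all but Smarcc2 and Smarcd1, which is near that background. The adjusted p was then 7.83e-05 for Smarcc1, 0.00482 for Smarca2, 0.000751 for Smarcd2 and 0.0213 for Smarce1. The differences of the other 5 members in the fit without the block ran from -0.99 for Smarca2 (adjusted p = 0.0908) to 0.51 for Smarcd1 (adjusted p = 0.429).

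The genes of the other SWI/SNF subunits give the setting of these values. Of 22 such genes, 17 passed the filter on low values in females, of which 6 were called higher and 4 lower, against 26.9% and 34.6% of all tested genes, with a median log2 fold change of 0.05 against -0.13 over all tested genes. In males 20 passed, of which 7 were called higher and 5 lower, against 21% and 25.3%, with a median of 0.42 against -0.07. With the replicate block 7 were called higher and 4 lower in females, against 34.1% and 42.6% of all tested genes, and 11 higher and 6 lower in males, against 35.1% and 41.2%. Bcl7c, Ss18, Actl6a and Arid1b were called higher in both sexes, with log2 fold changes of 2.58 and 1.28 for Bcl7c, 1.64 and 1.53 for Ss18, 0.93 and 1.45 for Actl6a, and 0.81 and 1.61 for Arid1b in females and males. Dpf2 and Ss18l1 were called lower in both, at -0.98 and -0.76 for Dpf2 and at -0.72 and -1.45 for Ss18l1. SS18 and SS18L1 (CREST) share a position in BAF, as do the SMARCD paralogues, and their genes moved in opposite directions in each sex. The PBAF subunit genes Arid2 and Brd7 were each called in opposite directions in the sexes. Arid2 was at -0.85 in females and 1.45 in males (interaction adjusted p = 0.00842), and Brd7 at -0.48 and 0.72 (interaction adjusted p = 0.00380). Phf10 and Pbrm1, also of PBAF, were not. In the fit without the block, Phf10 was called higher in females only (0.47, limma adjusted p = 0.0420) and Pbrm1 in neither sex. Actb, which encodes beta-actin and is also used throughout the cell, was at 2.25 in females (adjusted p = 0.000843), with a negative interaction (-1.83, adjusted p = 0.0113). Arid1a (1.28) and Dpf1 (-1.13) were called in males and not in females, and their interaction was called as well (adjusted p = 0.00293 and 0.0176). Bcl11a was lower in males (-1.73) and below the filter in females.

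For comparison, 16 ATPase genes of other remodelling families were read from the same fits, of which 13 had a locus of their own and passed the filter in each sex. In females 5 were called lower and 4 higher, near the shares of 34.6% and 26.9% over all tested genes, and in males 4 lower and 1 higher, against 25.3% and 21%. The median log2 fold changes were -0.28 and -0.10, against -0.13 and -0.07 over all tested genes. With the replicate block 7 were called lower and 4 higher in females, against 42.6% and 34.1%, and 4 lower and 4 higher in males, against 41.2% and 35.1%, where Ino80, Smarcad1 and Atrx joined Hells among those higher. Smarca5 (SNF2H, the ISWI ATPase) was called lower in both sexes, at -1.64 in females and -0.97 in males. Under the stricter rule Ep400 (-1.70), Hells (-1.13) and Chd9 (-1.11) were also lower and Atrx (1.60), Chd7 (1.56) and Chd1 (1.46) higher in females. Hells was called higher in males (0.67, interaction adjusted p = 0.00135) and Chd7 lower (-0.95, interaction adjusted p = 0.00150), and Chd3 was called higher in females (0.77) and lower in males (-0.92, interaction adjusted p = 0.00294).

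**Figure D4:**
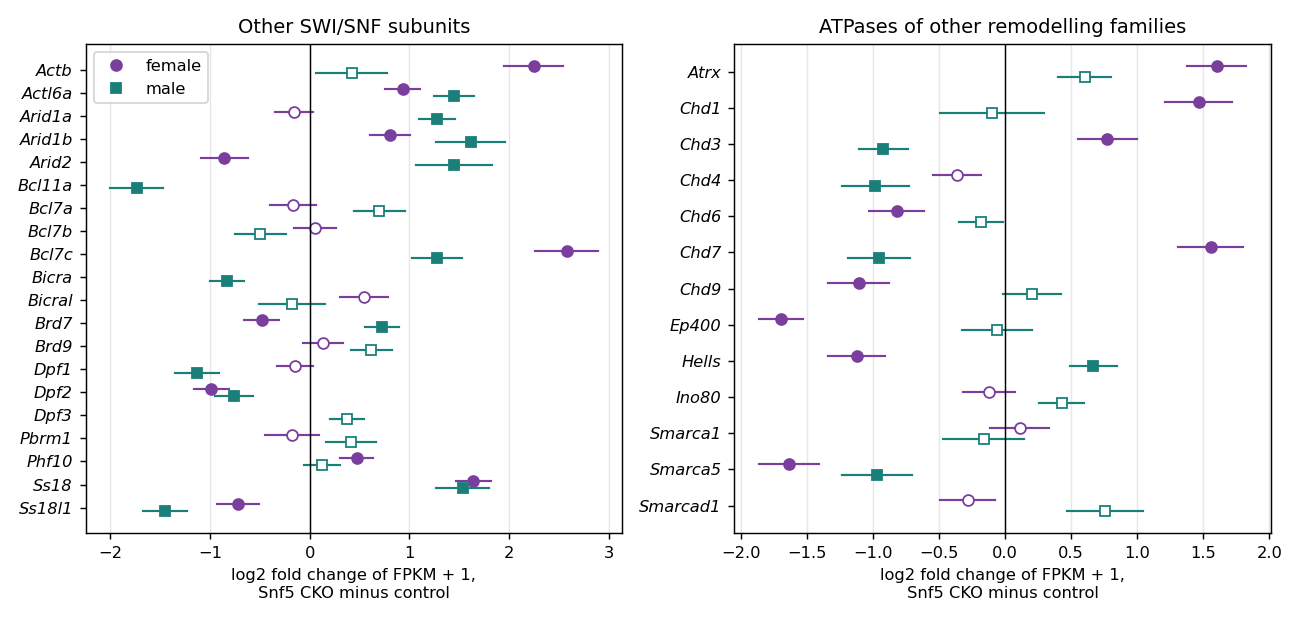
Log2 fold change of FPKM + 1 (Snf5 CKO minus control) with its standard error for other SWI/SNF subunit genes (left) and ATPase genes of other remodelling families (right) in females (circles) and males (squares), filled for an adjusted p under 0.05. Bcl7c, Ss18, Actl6a and Arid1b lie right of 0 with filled symbols in both sexes, and Dpf2, Ss18l1 and Smarca5 lie left of 0.

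The genes most like a member in pattern were found by the Euclidean distance of log2(FPKM + 1), centred on the control mean of each table, over the 8 libraries and among 10472 genes. The 5 nearest to Smarcb1 were Dpep3 (distance 0.764), Gm364 (0.814), Topaz1 (0.928), Tdrd1 (1.12) and Bnc2 (1.18), where the median distance of all genes was 6.56. Topaz1 is a germ cell gene needed for male meiosis and Tdrd1 encodes a Tudor domain protein of the piRNA pathway. Tdrd1, for instance, was at 13.7 and 10.6 FPKM in the female controls against 3.44 and 1.80 with Snf5 CKO, and at 123 and 78.8 FPKM in the male controls against 6.35 and 5.02. Nearest to Smarcd3 were Ctsf (0.324), Prdm16 (0.360) and Vopp1 (0.364), and nearest to Smarca4 were Zc2hc1a (0.245), Radil (0.291) and Zc3h13 (0.309). The genes closest to Smarca2 were Rcor2 (0.244), Trak1 (0.280) and Pitrm1 (0.286), and those closest to Smarcc2 were Kif2c (0.211), Mbtps1 (0.232) and Kif20a (0.258). The measure describes likeness of these libraries alone.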

How the data were processed

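RNA of sorted E15.5 germ cells was amplified with a SMART-Seq v4 kit, and libraries were made with Nextera XT. The authors mapped reads to mm10 and quantified FPKM with TopHat and Cufflinks, in a separate run per sex, and deposited FPKM with confidence bounds per locus. The submitters' processing notes name TopHat2 2.2.1 and Cuffdiff 2.1.1, and the paper's methods give other version numbers. Starts in the tables count from 0, so 1 was added. The tables hold no counts and the total depth is unknown. The steps of values at or below 0.1 FPKM put 3 female libraries at 1.23 to 2.44 times the depth of female control 1, and 3 male libraries at 0.951 to 1.48 times that of male control 1, an estimate that may be off by a whole factor.

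Genes with a name whose mean over the 4 libraries of a table reached 1 FPKM were fitted as log2(FPKM + 1) with limma 3.58.1 in R 4.3.3 (lmFit, eBayes with a trend), and p-values were adjusted by Benjamini-Hochberg over all genes tested. A gene with several rows was represented by the row with the highest mean. Fold changes on this scale understate those of low genes. Sex differences are contrasts of log2 differences within a table. In simulated data with genes changed by known folds, 98% (females, 11529 genes) and 96% (males, 12279 genes) of genes with a log2 fold change of 2 were recovered. In them 7 and 3 unchanged genes were called. The simulated noise was independent between libraries, few genes were changed, and effects as small as those of most members were not simulated. These rates therefore do not measure how the test performs on the members. The members and lists were chosen with earlier results of these data known. Named were all members, listed genes with an adjusted p under 0.05 and a log2 fold change of at least 1 in either sex or that share a position with a member or are called in both sexes, and the nearest genes in pattern, 5 for Smarcb1 and 3 for other members called by the stricter rule. Genes called in both sexes were added to this rule after their values were seen. Outside it, Phf10 and Pbrm1 were named as PBAF subunit genes, and Ino80 and Smarcad1 for their calls with the replicate block. Chd8, Srcap and, in males, Chd2 had no locus of their own and were not analysed here. Groups follow the labels, with 2 libraries each. The study's methods call the libraries biological duplicates, and p-values measure the spread between them. The replicate numbers were taken to pair the libraries as a shared batch, from the names of the raw data in the labels, which do not state it. Replicate deviations in controls and Snf5 CKO libraries were correlated across genes (r = 0.500 for females, 0.607 for males). Alternatives were other pseudocounts, filters, scalings and eBayes settings, the replicate block, summed rows, loci with status OK, and leaving out each library. Promoters are from RefSeq (GRCm38.p6) and annotation from GENCODE M21. Python 3.11.15 and matplotlib 3.10.9 were used for the figures.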

Additional observations from a re-analysis of the deposited data

Results flagged for a closer look

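The effect of Snf5 CKO differed between the sexes by the interaction contrast for 3 members. Without passing that test, 2 further members had opposite directions in the sexes when libraries were paired by replicate number. No label states this pairing, and the share of all genes with such opposite pairs is not given here. The male minus female difference in log2 fold change was -1.41 for Smarcb1 (female -2.48, male -3.90), 0.84 for Smarca4 (female -1.12, male -0.28) and -0.91 for Smarcd3 (female -1.18, male -2.10), each past the threshold in limma. The study estimated more complete recombination of the floxed Snf5 locus in males, whose part in the Smarcb1 difference was not tested. For Smarcc1 it was -1.47, since both female replicates were higher and both male replicates lower with Snf5 CKO, and the limma adjusted p was 0.0519, or 7.83e-05 with the replicate block. For Smarce1 it was -0.31, with small changes of opposite sign in both replicates of each sex and a limma adjusted p of 0.241, or 0.0213 with the replicate block. The female groups of Smarce1 overlap, and its female log2 fold change was -0.0099 without Snf5 CKO replicate 1. In the interaction contrast 45.3% of all genes were called. After scaling to a common sum, the interaction calls of Smarca4 and Smarcd3 were lost (limma adjusted p = 0.336 and 0.118).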

How the results depend on the processing

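Smarcb1, Smarca4 and Smarca2 in females and Smarcb1 and Smarcd3 in males were called with the same sign under every alternative run. When genes of any level were tested in females, 2 members were called lower and 1 higher. Over all genes that fit called 2680 of 23694 lower and 2133 higher, against 3992 and 3107 of 11529 in the main fit. Leaving out a library turned the direction of none of the 6 members called in females. In males 2 to 3 were called lower and 0 to 2 higher without a library (2 without Snf5 CKO replicate 2), and the replicate block gave 6 lower and 3 higher. In females the paired fit with the replicate block changed no call of a member. Members whose effect differed between the sexes numbered 3, and 1 after scaling to a common sum, 5 after median-of-ratios scaling, 7 with the replicate block and 1 to 4 without a library (1 without female Snf5 CKO replicate 1). Over all genes, the main interaction contrast called 2286 of 10472 negative and 2458 positive. With a common sum it called 1627 of 10498 negative and 964 positive, so calls were also fewer over all genes. With median-of-ratios scaling it called 2583 of 10490 negative and 2156 positive. The direction of uncalled members in females turned without Snf5 CKO replicate 1, and for Smarcd2 also without control replicate 2 (-0.06), with ranges over the left-out libraries of -0.22 to 0.63 for Smarcd1, -0.20 to 0.32 for Smarcd2 and -0.0099 to 0.16 for Smarce1. The difference between the sexes for Smarcc2 ran from -0.78 to 0.0245, the last without male Snf5 CKO replicate 2. The change in the Smarcc1 share in females was -4.24 points with a pseudocount of 1 on each paralogue against -5.28. Without a library the change ran from -20.0 to -13.8 points for Smarca4, -5.98 to -4.57 for Smarcc1 and -10.4 to -6.22 for Smarcd3 in females, and from -17.2 to -8.61, -9.76 to -7.84 and -16.4 to -12.7 in males. Causes of these shifts were not tested.

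Over all tested genes, scaling moved the median log2 fold change by 0.17 with median-of-ratios scaling in females and by -0.17 with a common sum in males, and no member changed direction under either. With the common sum, 34.7% of all calls in males were higher, against 45.4% without it, and with median-of-ratios scaling 51.7% of all calls in females were higher, against 43.8%, so that the balance of calls turned (3428 lower and 3674 higher, against 3992 and 3107). The number of genes called in males was 3109 lower and 2580 higher, against 5058 and 4313 with the replicate block, 1642 higher with no filter and 1402 higher with a common sum, and the interaction calls went from 2286 negative and 2458 positive to 1627 and 964 with a common sum and to 3574 and 3905 with the block. With 2 libraries per group and no counts, depth sets no stated limit on these values.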
